A study of Mus musculus with 15 samples.

Results

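The genes described here are 10 phosphatase and Sprouty family genes, most of them feedback inhibitors of ERK (extracellular signal-regulated kinase) signaling. They are the dual-specificity phosphatases *Dusp1*, *Dusp2*, *Dusp4*, *Dusp5*, *Dusp6*, and *Dusp10*, the Sprouty genes *Spry1*, *Spry2*, and *Spry4*, and *Spred1*. Members were found by gene symbol in the array annotation, which gave 14 of 41174 probes for 9 of the 10 genes. No probe carried the symbol *Dusp5*. Uterine RNA was hybridized to 15 one-color Agilent Whole Mouse Genome arrays, 3 for each of 5 groups. Adult female mice (10 or more weeks of age) were ovariectomized, rested for 10 to 14 days, and injected intraperitoneally with 100 μL of saline, with 250 ng of estradiol (E2), or with 250 ng of estriol (E3). E2 is the main ovarian estrogen, and E3 differs from it by an additional hydroxyl group. Uteri were collected 24 hr after saline, and 2 or 24 hr after E2 or E3. Mice of the E2 group at 2 hr were of strain C57bl6/Jx129 with a WT *Esr1* genotype, whereas the labels of the other 4 groups give C57bl6/J and no genotype. The study describes the mice of these profiles as WT. Saline was collected at 24 hr alone among the samples analysed here, and those 3 arrays are the control of every comparison with saline, which therefore share them. At 2 hr against saline, and between 2 and 24 hr, the compound cannot be told apart from time since the injection. The descriptions have each uterus homogenized singly, while the methods speak of pooled tissue. Where arrays share a pool, p-values cover only the spread between these arrays, which may be technical.

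When a growth factor receptor activates Ras, the kinases Raf, MEK, and ERK are switched on in turn, and ERK then induces genes whose products shut the pathway down. Nuclear phosphatases such as DUSP1, DUSP2, and DUSP4 and the cytoplasmic phosphatase DUSP6 remove phosphate from ERK or its relatives p38 and JNK. DUSP10 acts mainly on p38 and JNK. Sprouty and Spred proteins act further up, between the receptor and Raf. In the uterus of an ovariectomized mouse, estrogen starts a rapid wave of transcription that is followed by epithelial proliferation, and growth factor receptors take part in that response.

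Of the 8 members found in the RefSeq promoter table (mouse GRCm38.p6), 7 have a probe on the array. Promoters are shown for the 4 members of that table whose transcripts were called higher at 2 hr after both compounds, so that their upstream letters can be read beside their values. Each line gives the 250 bases before the annotated start, 5′ to 3′ in the direction of the gene. Capitals mark matches on either strand to TGACG (core of the cAMP response element), TGACGTCA (the full element, which contains the core), TGACTCA (AP-1 site), GGGCGG (GC box), ATTGG (bound by the factor NF-Y), GGTCA (a single arm of an estrogen response element), the palindromic estrogen response element (which contains that arm), CCGGAAG (ETS core), and the CArG box.
*Dusp1*, minus strand, chr17:26508473-26508722: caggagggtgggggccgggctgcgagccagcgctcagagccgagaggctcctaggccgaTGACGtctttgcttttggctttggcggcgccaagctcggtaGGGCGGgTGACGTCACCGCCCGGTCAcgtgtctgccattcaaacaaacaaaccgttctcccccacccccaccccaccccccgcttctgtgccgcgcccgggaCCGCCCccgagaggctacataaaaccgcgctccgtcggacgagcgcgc
*Dusp2*, plus strand, chr2:127335909-127336158: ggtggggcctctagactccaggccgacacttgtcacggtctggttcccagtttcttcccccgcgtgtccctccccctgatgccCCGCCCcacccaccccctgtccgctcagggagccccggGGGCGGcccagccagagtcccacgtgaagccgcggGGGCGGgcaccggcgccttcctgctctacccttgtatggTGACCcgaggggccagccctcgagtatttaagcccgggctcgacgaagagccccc
*Dusp6*, plus strand, chr10:99262981-99263230: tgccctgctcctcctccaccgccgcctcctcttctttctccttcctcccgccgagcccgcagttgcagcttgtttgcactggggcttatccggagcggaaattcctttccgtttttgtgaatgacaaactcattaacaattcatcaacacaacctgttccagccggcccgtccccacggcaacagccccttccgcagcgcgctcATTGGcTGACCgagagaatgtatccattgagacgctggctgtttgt
*Spry2*, minus strand, chr14:105896820-105897069: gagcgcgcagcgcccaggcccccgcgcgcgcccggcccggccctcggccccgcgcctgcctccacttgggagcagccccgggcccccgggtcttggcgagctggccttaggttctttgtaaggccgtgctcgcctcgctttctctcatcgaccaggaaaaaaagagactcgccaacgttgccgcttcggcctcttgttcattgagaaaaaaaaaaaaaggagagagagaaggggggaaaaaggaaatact

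No motif was shared by all 4 windows. The *Dusp1* window had 1 full cAMP response element, which began 143 bases before the start, and a further TGACG at 191 bases. The full element was in 1.55% of the 32851 promoters of the table and TGACG in 17.8%. GGGCGG occurred 3 times each in the *Dusp1* and *Dusp2* windows and in 32.7% of all promoters. GGTCA was found once each in the *Dusp1*, *Dusp2*, and *Dusp6* windows and in 35.2% of all promoters. The *Dusp6* window had ATTGG 46 bases before the start, and 33.8% of all promoters had that motif. None of the motifs searched was in the *Spry2* window. TGACTCA (4.46% of all promoters), the palindromic estrogen response element (0.0639%), CCGGAAG (6.91%), and the CArG box (1.47%) were in none of the 4 windows. A match is a description of letters and not a binding site.

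Levels are log2 processed intensities relative to the 75th percentile of the same array, which is set at 0. Where a gene had more than 1 probe, the brightest stands for it, and levels are never compared between probes. A difference was called when the limma p was below 0.001 and the change 2-fold or more. Adjusted p-values are Benjamini-Hochberg values over all 34765 probes tested, and ranges given for differences are 95% confidence intervals. Of 6 uterine identity genes (*Esr1*, *Pgr*, *Hoxa10*, *Hoxa11*, *Emx2*, and *Wnt7a*), 5 or 6 were well above background on every array. On each array 77.7% to 81.6% of all probes were too, so that measure alone does not identify the tissue. The 3 E2 arrays at 2 hr were scanned on another scanner and day than the other 12 arrays and were alone on their slides, so that scanner, slide, strain, and treatment cannot be told apart there. Transcripts of liver (7 markers, all well above background on the saline arrays) summed to 5.29 to 19.8 times the 75th percentile on the saline arrays, 1.29 to 3.31 on the E3 arrays at 2 hr, 0.0316 to 0.0412 on the E2 arrays at 2 hr, and 0.243 to 0.496 on the 24-hr E2 and E3 arrays. The 6 exocrine pancreas markers ranged from 0.194 to 0.436 on 11 arrays, were at 208 on E2 24-hr replicate 2 and 440 on E3 2-hr replicate 2, and were at 4.13 and 9.40 on replicate 3 of those groups. The part of these transcripts in the results was not tested. Results without those 2 or 4 arrays, called pancreas-high here, are given where a call was lost.

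*Dusp1*, *Dusp2*, *Dusp6*, *Spry2*, and *Spry4* increased 2 hr after both E2 and E3. *Spry1* decreased after E2. *Dusp4*, *Dusp10*, and *Spred1* were called in neither comparison. Of 9 members tested, 5 were higher and 1 was lower than saline 2 hr after E2, where 10.6% of all probes were called higher and 10.7% lower. After E3, 5 were higher and 0 lower, against 4.68% and 9.11% of all probes. The median difference of the members was 1.08 (log2) after E2 and 1.14 after E3, beside -0.083 and -0.11 over all probes. The treated and saline arrays did not overlap for 7 members after E2 and for all 9 after E3, which was also true of 67.2% and 58.1% of all probes. Because whole uteri were measured, fewer cells of a type and less RNA per cell cannot be told apart. Of 7 epithelial markers, 2 were called lower 2 hr after E2 and 0 after E3, and their summed level was 73.3 to 101 times the 75th percentile on the saline arrays, 50.4 to 66.2 after E2, and 55.2 to 73.8 after E3. Of 6 stromal markers 1 was called lower after E2 and 0 after E3 (192 to 239 after saline, 181 to 211 after E2, 157 to 185 after E3). No smooth muscle marker (6, at 257 to 296, 273 to 298, and 272 to 281) and no endothelial marker (5, at 12.6 to 13.8, 11.8 to 15.4, and 9.87 to 11) was called. The uterine identity genes, of which 1 was called higher and 2 lower after each compound, summed to 37.0 to 42.4 after saline, 31.0 to 33.9 after E2, and 17.5 to 21.9 after E3. The part of these shifts in the members' differences was not tested.

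**Figure D1:**
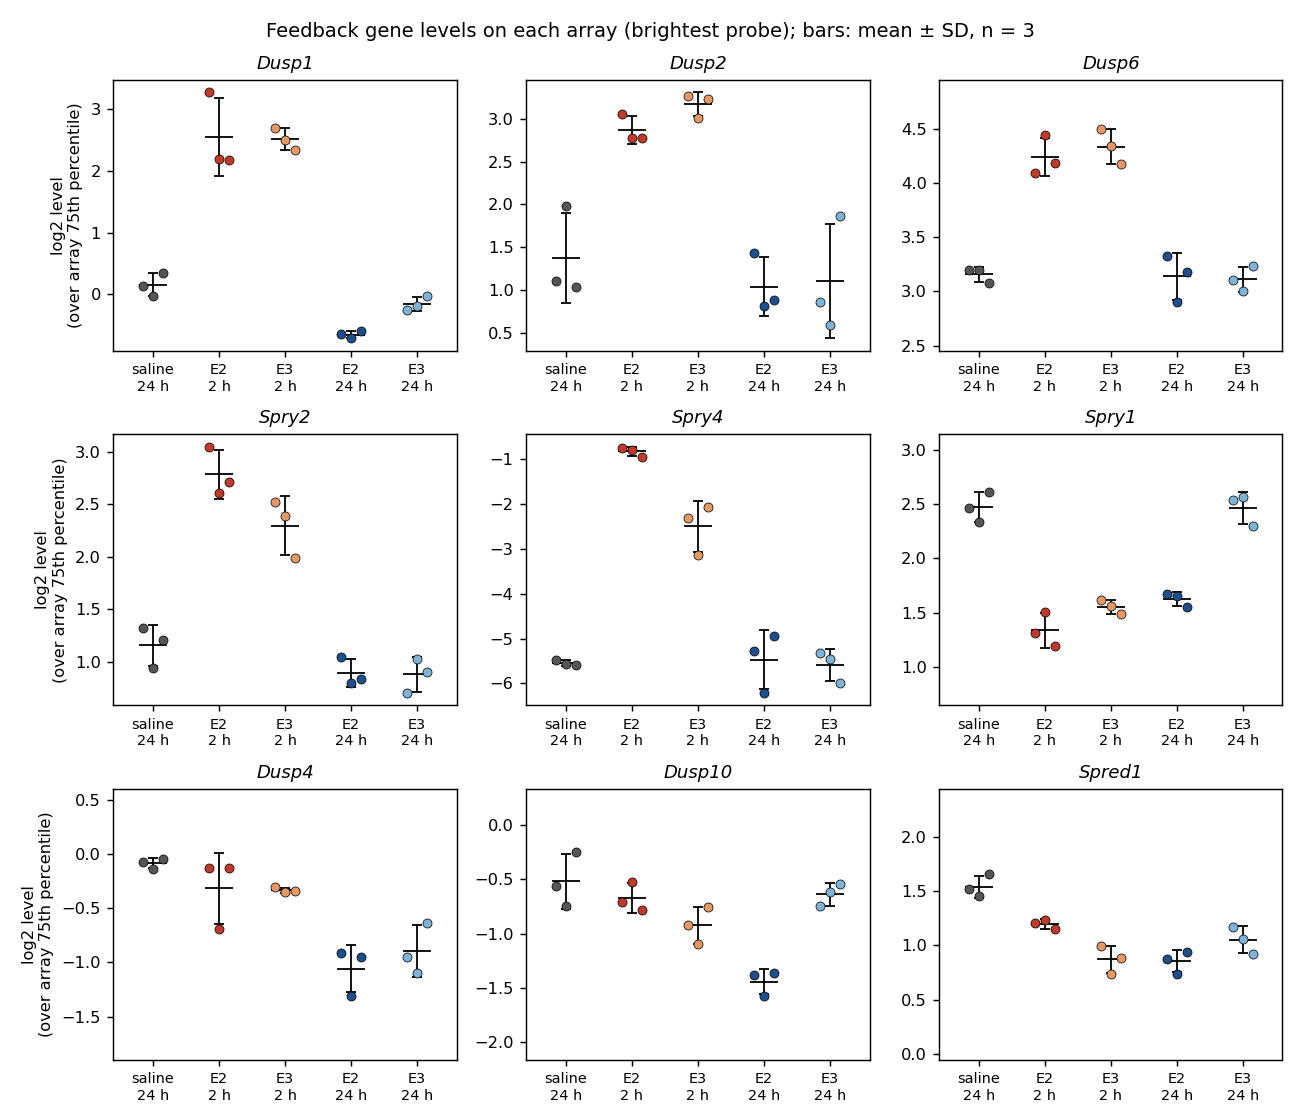
Levels of the 9 measured feedback genes by group, as log2 processed intensity over the array's 75th percentile (brightest probe of each gene). Each point is 1 array, and bars are the mean ± SD of 3 arrays. The 2-hr arrays of *Dusp1*, *Dusp2*, *Dusp6*, *Spry2*, and *Spry4* lie above all saline and 24-hr arrays, whereas those of *Spry1* lie below all saline arrays.

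*Spry4*, which blocks growth factor signaling upstream of Raf, increased more than the other members. Its levels were -5.47, -5.56, and -5.60 on the saline arrays, -0.74, -0.78, and -0.94 at 2 hr of E2, and -2.31, -3.13, and -2.05 at 2 hr of E3. All treated arrays lay above all saline arrays, and the E2 arrays also lay above the E3 arrays. The difference from saline was 4.72 (4.03 to 5.42) after E2, or 26.4-fold (adjusted p = 1.53e-07, limma). After E3 it was 3.05 (2.35 to 3.74), or 8.27-fold (adjusted p = 8.44e-06). With normexp background correction the E2 increase was 3.93, still called (adjusted p = 0.000156), and the E3 increase was 2.33 and was not called (adjusted p = 0.00816). The second *Spry4* probe (A_51_P250422) was not well above background on any saline or 24-hr array. It was well above background on all 3 E2 arrays and on 2 of 3 E3 arrays at 2 hr. Its increase was at least 1.95-fold after E2 and at least 1.42-fold after E3. This probe entered the tests only because of these 2-hr arrays, so its values are no separate support for the increase. The floor for the dim arrays was each array's dimmest probe well above background (-8.29 to -7.76).

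*Dusp1*, an immediate-early nuclear phosphatase of p38, JNK, and ERK, was the next in size. Its probe lies on mm7 chr17:24690398-24690455, minus strand. Levels were 0.13, -0.02, and 0.35 after saline, 3.28, 2.20, and 2.18 at 2 hr of E2, and 2.70, 2.51, and 2.34 at 2 hr of E3. E2 replicate 1 was the highest array, and no treated array overlapped the saline arrays. The increase was 2.40 (1.89 to 2.92) after E2, or 5.28-fold (adjusted p = 3.13e-06), and 2.36 (1.85 to 2.88) after E3, or 5.15-fold (adjusted p = 6.06e-06). Without any 1 array, the E2 increase remained between 2.04 and 2.59 and the E3 increase between 2.27 and 2.46, and both were called each time.

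*Spry2*, a second receptor-proximal inhibitor, increased by 1.63 (1.28 to 1.99) after E2, or 3.1-fold (adjusted p = 3.50e-06), and by 1.14 (0.78 to 1.50) after E3, or 2.20-fold (adjusted p = 0.000102). Its levels were 1.32, 0.94, and 1.21 on the saline arrays, 3.05, 2.60, and 2.71 at 2 hr of E2, and 2.52, 2.39, and 1.98 at 2 hr of E3. The groups did not overlap with saline, and the E2 arrays lay above the E3 arrays. That probe (mm7 chr14:100321854-100321913, minus strand) belongs to an expressed sequence tag. The other *Spry2* probe lies within the same kilobase on the same strand (mm7 chr14:100322370-100322429), belongs to the RefSeq transcript, and is dimmer. On it the levels rose from -4.33, -4.30, and -4.36 to -2.32, -2.39, and -2.55 after E2 and to -3.95, -3.82, and -3.81 after E3. Its E2 increase of 1.92 was called (adjusted p = 7.14e-09), but its E3 increase of 0.47 was under 2-fold (adjusted p = 0.000455). Both probes were higher after both compounds, and the E3 increase was larger on the brighter probe.

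*Dusp2*, an inducible nuclear phosphatase, increased 2.82-fold (1.5 on the log2 scale, 0.80 to 2.19) after E2 (adjusted p = 0.00134) and 3.48-fold (1.80, 1.10 to 2.49) after E3 (adjusted p = 0.000511). Saline levels were 1.11, 1.98, and 1.03, and replicate 2 set most of their spread. The E2 levels of 3.06, 2.77, and 2.77 and the E3 levels of 3.27, 3.01, and 3.23 all lay above them. The E2 call did not hold in 5 of 15 fits that left out 1 array (each E2 2-hr array, and saline replicate 1 or 3), with differences of 1.32 to 1.54. It was also lost with quantile normalization (1.38, adjusted p = 0.00265). The difference stayed at 1.5 and the call was lost in the fit of these 2 groups alone (adjusted p = 0.0043) and without the 2 or 4 pancreas-high arrays (adjusted p = 0.00318 and 0.00707), which belong to other groups and enter this comparison through the shared spread. Without the 4 arrays the E3 call was lost too (1.89, adjusted p = 0.0232).

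*Dusp6*, the cytoplasmic ERK-specific phosphatase, increased least of the 5 after E2. Levels went from 3.20, 3.20, and 3.08 after saline to 4.09, 4.44, and 4.18 at 2 hr of E2 and to 4.50, 4.34, and 4.17 at 2 hr of E3. Again no treated array overlapped saline. The increase was 1.08 (0.80 to 1.36) after E2, or 2.11-fold (adjusted p = 1.48e-05), and 1.18 (0.90 to 1.46) after E3, or 2.26-fold (adjusted p = 1.22e-05). Being close to 2-fold, the E2 increase fell under that limit with quantile normalization (0.91) and without E2 2-hr replicate 2 (0.98).

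*Spry1* moved opposite to *Spry2* and *Spry4*. Levels were 2.47, 2.34, and 2.62 on the saline arrays and lower on every 2-hr array, at 1.31, 1.51, and 1.19 after E2 and at 1.61, 1.56, and 1.48 after E3. The difference was -1.14 (-1.37 to -0.91) after E2, or 2.20-fold lower (adjusted p = 1.97e-06). After E3 it was -0.92 (-1.15 to -0.69), under the 2-fold limit with adjusted p = 1.85e-05. It passed that limit with quantile normalization (-1.01).

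*Dusp4*, a nuclear ERK phosphatase, differed from saline at 2 hr by -0.23 after E2 and -0.25 after E3, with intervals from -0.59 to 0.12 and from -0.60 to 0.10. *Dusp10* differed by -0.15 (-0.44 to 0.14) and -0.41 (-0.70 to -0.12). *Spred1*, an inhibitor of Raf activation, was lower by less than 2-fold, at -0.34 (-0.55 to -0.14) after E2 and -0.67 (-0.88 to -0.47) after E3. Its other probes, which are dimmer, did not share that direction after E2, with differences of 0.41 and 0.12.

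**Figure D2:**
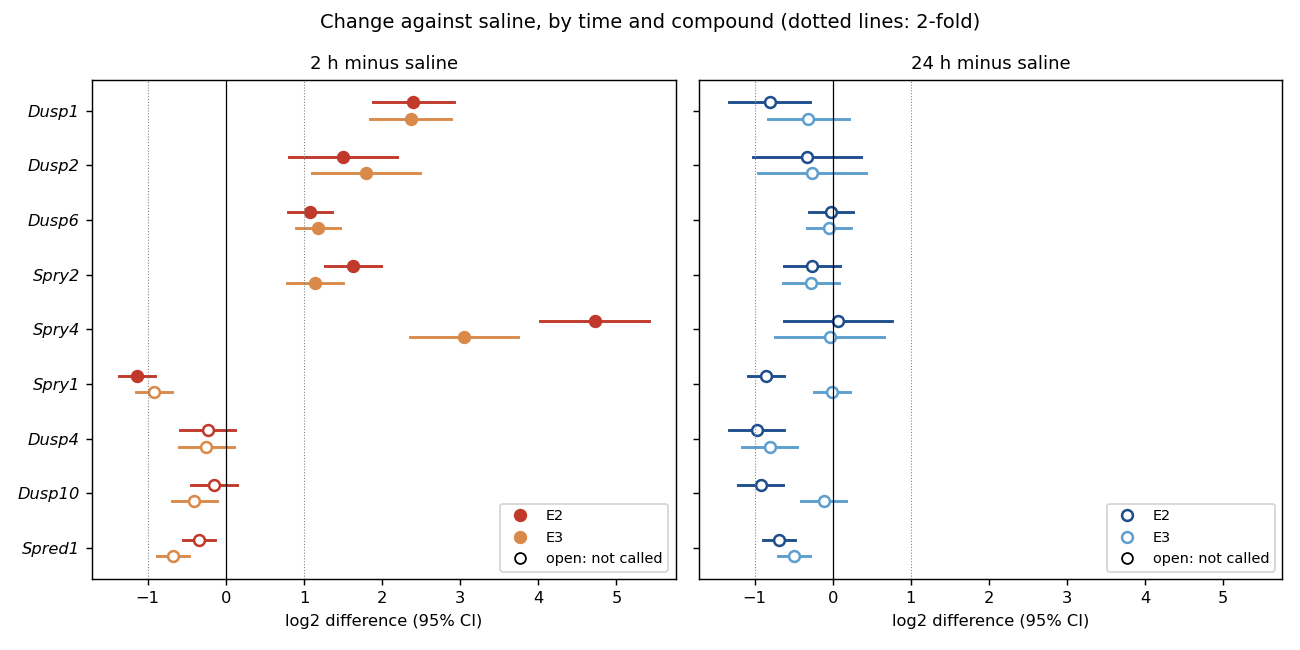
Log2 difference from saline with 95% confidence interval for each of the 9 genes after E2 and E3, at 2 hr (left) and 24 hr (right). Filled points were called (p under 0.001 and at least 2-fold, the dotted lines) and open points were not. At 24 hr no point is filled, and the 5 genes that were higher at 2 hr lie between -0.81 and 0.07.

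One slide held all 3 E3 2-hr arrays together with saline replicate 3, and with slide as a block the E3 differences rest on that slide. In that fit the saline side is 1 array, so the values are given as a description and no call is drawn from them. The differences were 2.17 for *Dusp1*, 2.14 for *Dusp2*, 1.26 for *Dusp6*, 1.09 for *Spry2*, 3.1 for *Spry4*, and -1.06 for *Spry1*, each in the direction found over all saline arrays. No other slide held arrays of more than 1 group. Slide and treatment therefore cannot be told apart in the E2 comparison at 2 hr, in the comparisons of 24 hr with saline or with 2 hr, or between the compounds. With slide as a random block no member call was gained or lost.

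At 24 hr, none of the 9 members was called against saline after either compound. Over all probes, 18.1% were called 24 hr after E2 and 3.81% after E3. At an unadjusted p under 0.05, 5 members were lower after E2, beside 36% of all probes, and 2 after E3, beside 24.1%. None was higher after either, where 29.1% and 20.3% of all probes were. The median difference of the members was -0.69 after E2 and -0.27 after E3, beside -0.063 and -0.0092 over all probes. Arrays did not overlap with saline for 5 members after E2 and 3 after E3, against 68.8% and 51.4% of all probes. Of the 7 epithelial markers, 3 were called higher after E2 and 0 after E3, and their summed level went from 73.3 to 101 times the 75th percentile on the saline arrays to 155 to 166 after E2 and 122 to 132 after E3. Of 6 smooth muscle markers, 2 were called higher after E2 and 1 after E3, with sums of 257 to 296 after saline, 353 to 383 after E2, and 361 to 445 after E3. Of 6 stromal markers 1 was called higher after each compound (192 to 239, 271 to 294, and 293 to 330). Of 5 endothelial markers 1 was called lower after E2 and 0 after E3 (12.6 to 13.8, 9.39 to 10.7, and 11.5 to 13.2). The 8 blood and leukocyte markers (27.2 to 63.9, 28.3 to 60.5, and 37.9 to 72.9) were not called and overlapped. The 6 uterine identity genes, of which 1 was called higher and 1 lower after E2 and 0 after E3, summed to 37.0 to 42.4 after saline, 25.0 to 33.2 after E2, and 32.9 to 36.2 after E3. The 6 fat markers summed to 17.4 to 89.6 on the saline arrays, 12.3 to 19.2 after E2, and 12.9 to 66.2 after E3, with 0 called. Their part in the differences was not tested.

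The 5 genes that were higher at 2 hr all decreased between 2 and 24 hr with both compounds. That made 5 of 9 members called lower in each case, where 17.2% of all probes were called lower for E2 and 6.47% for E3. In a fit of the 6 E3 arrays with replicate number as a block, 3 members stayed called (*Dusp1*, *Dusp6*, and *Spry4*), while *Dusp2* (-2.07, adjusted p = 0.00704) and *Spry2* (-1.42, adjusted p = 0.00664) did not. *Spry4* fell by 4.65 after E2 (adjusted p = 8.32e-08) and fell by 3.09 after E3 (adjusted p = 6.25e-06). With normexp the E2 fall was -3.82, still called, and the E3 fall was -1.5 and was not called. Its 24-hr levels were -5.27, -6.21, and -4.94 after E2 and -5.31, -5.46, and -5.98 after E3, which straddle the saline arrays. Against saline that left 0.07 (-0.63 to 0.76) for E2 and -0.04 (-0.74 to 0.65) for E3. With normexp these were 0.11 and 0.84, neither called, while the median of all probes was at -0.029 and 0.30.

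*Dusp1* fell by 3.21 after E2 and fell by 2.68 after E3 from 2 to 24 hr. Its 24-hr levels after E2 were -0.65, -0.72, and -0.59, all under the lowest saline array. The E3 levels of -0.26, -0.19, and -0.03 also lay under it, the highest of them narrowly. Its difference from saline was -0.81 (-1.32 to -0.29) after E2 (adjusted p = 0.0107) and -0.31 (-0.83 to 0.20) after E3, and neither was called. *Dusp2* fell by 1.83 after E2 and fell by 2.07 after E3. Its 24-hr levels overlapped saline after both compounds. The E2 fall was not called without the 2 pancreas-high arrays (-1.71, adjusted p = 0.00239) or without all 4 (-1.43, adjusted p = 0.0401), and the E3 fall was not called without all 4 (-2.16, adjusted p = 0.011).

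*Spry2* fell by 1.90 after E2 and fell by 1.42 after E3, to 0.89 ± 0.13 (SD, n = 3) and 0.88 ± 0.16, against 1.16 ± 0.20 after saline. Its differences from saline were -0.27 (-0.62 to 0.09) and -0.28 (-0.64 to 0.08). On the dimmer probe *Spry2* was still 0.59 (0.41 to 0.76) above saline 24 hr after E2 and 0.20 (0.02 to 0.38) after E3, both under 2-fold, and its fall from 2 to 24 hr of E3 (-0.27) was not called. *Dusp6* fell by 1.10 after E2 and fell by 1.23 after E3, and ended at -0.02 (-0.30 to 0.26) and -0.05 (-0.33 to 0.23) from saline. Its E2 fall was under 2-fold without E2 24-hr replicate 2 (-0.98), 1 of the pancreas-high arrays, and without all 4 such arrays (-0.91).

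The means of the other members lay below saline at 24 hr, by less than 2-fold. *Dusp4* had levels of -0.07, -0.13, and -0.05 after saline, between -1.31 and -0.91 at 24 hr of E2, and between -1.09 and -0.63 at 24 hr of E3, with no overlap. Its differences were -0.97 (-1.33 to -0.62) and -0.81 (-1.16 to -0.46), with adjusted p of 0.00025 and 0.00284. The E2 difference passed 2-fold when scaled on probes well above background on all arrays (-1.02) or without E2 24-hr replicate 1 (-1.05) or 3 (-1.02). The dimmer *Dusp4* probe gave -0.39 and -0.49. *Spred1* was at -0.69 (-0.90 to -0.48) and -0.49 (-0.70 to -0.29), but its 2 other probes differed from saline by 0.18 or less in size.

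*Spry1* and *Dusp10* were lower 24 hr after E2 and near saline 24 hr after E3. Between 2 and 24 hr of E3 *Spry1* differed by 0.91, which passed 2-fold without E3 24-hr replicate 3 (1.00). Its levels were 1.67, 1.65, and 1.55 after E2, all under the saline arrays, and 2.54, 2.56, and 2.30 after E3, among them. The differences were -0.85 (-1.08 to -0.62; adjusted p = 2.71e-05) and -0.01 (-0.24 to 0.23). *Dusp10* levels were -0.56, -0.74, and -0.25 after saline, between -1.57 and -1.37 at 24 hr of E2, and between -0.75 and -0.54 at 24 hr of E3. Its differences were -0.92 (-1.21 to -0.63; adjusted p = 7.95e-05) and -0.12 (-0.41 to 0.17). It passed 2-fold without saline replicate 2 (-1.04).

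E2 and E3 were compared directly for 9 genes at each of 2 times, with p-values adjusted over all probes. At 2 hr, *Spry4* was the member called, 1 of 9, against 5.83% of all probes called lower for E3. It was lower after E3 by 1.67 on the log2 scale (-2.37 to -0.98), or 3.19-fold (adjusted p = 0.00129), and no array overlapped. Strain, scanner, and slide also differ between these groups and cannot be told apart from the compound. The call was lost with normexp background correction (-1.59, adjusted p = 0.0695) and without E2 2-hr replicate 1 (-1.63, adjusted p = 0.00514). The dimmer probe differed by -0.46 but was not well above background on E3 replicate 3, so that its value says little about the compounds. *Spry2* was lower after E3 by 0.49 (-0.85 to -0.14; adjusted p = 0.0291), and on its dimmer probe by 1.45 (-1.62 to -1.27; adjusted p = 8.00e-07). *Spred1* was lower after E3 by 0.33 (-0.53 to -0.12; adjusted p = 0.0146), and its other probes gave -0.56 (adjusted p = 0.00493) and -0.016. For the 3 phosphatases that rose, E3 minus E2 was -0.04 (-0.55 to 0.48) for *Dusp1*, 0.30 (-0.39 to 0.99) for *Dusp2*, and 0.10 (-0.18 to 0.38) for *Dusp6*. The *Dusp2* interval ends just short of a 2-fold difference, and all 3 intervals leave room for smaller ones.

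**Figure D3:**
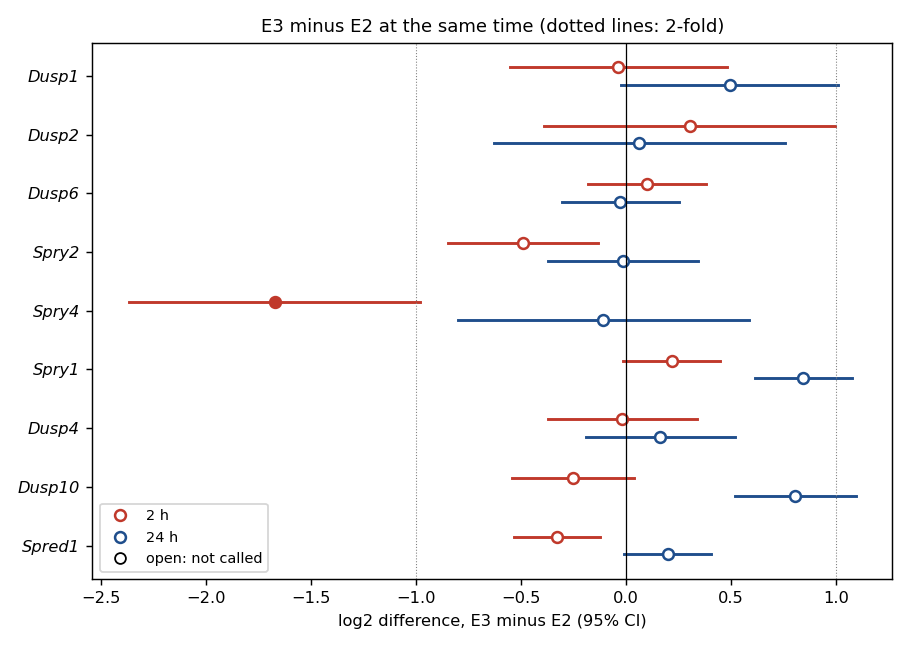
Log2 difference of E3 minus E2 with 95% confidence interval for the 9 genes at 2 hr and at 24 hr. The filled point, *Spry4* at 2 hr (-1.67), was called, and open points were not. *Spry1* (0.84) and *Dusp10* (0.81) lie to the right at 24 hr, under the 2-fold line.

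At 24 hr none of the members was called between the compounds, where 4.85% of all probes were called. At an unadjusted p under 0.05, 2 were higher after E3 and 0 lower, beside 26.2% and 19.4% of all probes. These were *Spry1*, at 0.84 (0.61 to 1.07; adjusted p = 0.000119), and *Dusp10*, at 0.81 (0.52 to 1.10; adjusted p = 0.000669). The difference between compounds changed with time for *Dusp10* by 1.06 (0.65 to 1.47; adjusted p = 0.000731), 1 of 9 members called beside 11.1% of all probes called in that direction. That call was lost with normexp (0.98), without scaling between arrays (1.10), without replicate 2 of E2 24-hr, E2 2-hr, or E3 2-hr (0.97 to 0.99), and without the 2 or 4 pancreas-high arrays (0.91 and 1.00). The strain, scanner, and slide of the E2 2-hr arrays enter every change of the compound difference with time. *Spry1* changed by 0.63 (0.30 to 0.95; adjusted p = 0.00483), under 2-fold. *Spry4* changed by 1.57 (0.58 to 2.55; adjusted p = 0.0135), with an unadjusted p above the limit for a call.

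**Figure D4:**
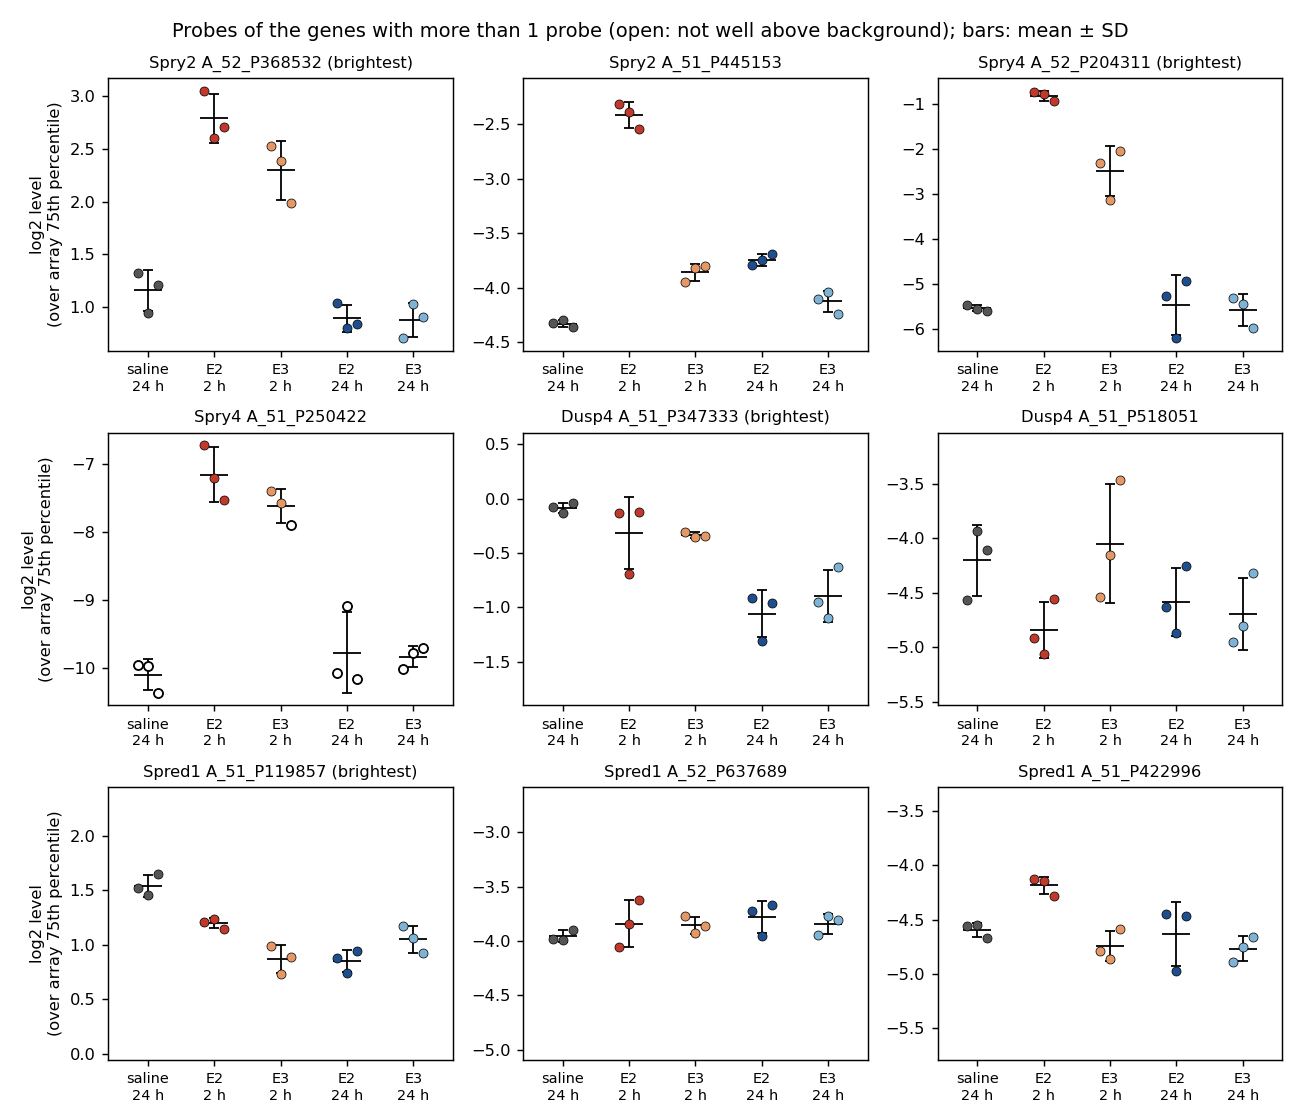
Levels on each probe of the 4 genes with more than 1 probe, as log2 over the array's 75th percentile, by group. Points are arrays (open where not well above background), and bars are the mean ± SD of 3 arrays. The probes of *Spry2* and *Spry4* rise together at 2 hr, with a smaller E3 rise on the dimmer *Spry2* probe, whereas those of *Spred1* do not move together.

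The 5 related gene lists, chosen by name, place these values in the pathway. Their counts stand beside 10.6% of all probes called higher and 10.7% lower 2 hr after E2, 4.68% and 9.11% after E3, and 18.1% and 3.81% called in either direction at 24 hr of E2 and E3. Of the 38 list differences named here, 12 lost their call in some alternative, and these are given with each list. The list of ERK-responsive transcription factors and early genes had 11 of 19 tested genes higher and 1 lower 2 hr after E2, and 10 higher and 2 lower after E3. *Elk1* of that list was below the filter. *Fos*, the AP-1 subunit, rose by 5.74 after E2 and 5.29 after E3, and *Fosl1*, a related subunit, by 5.0 and 4.29. *Etv5*, an ETS factor, decreased by 2.01 and by 1.56, and *Etv1* by 1.13 after E3. At 24 hr 1 was higher and 1 lower after E2 (*Fosl1* at 1.01 and *Jun* at -1.17), and 0 were called after E3, with 2 higher and 4 lower at an unadjusted p under 0.05. The *Fosl1* call at 24 hr was lost in 10 of 28 alternatives, among them normexp (0.38), the 4 pancreas-high arrays left out (0.65), and E2 24-hr or saline replicate 2 or 3 left out (0.90 to 1.01). The *Etv1* call was lost without the 4 arrays (-0.92). With slide as a block, where the saline side is 1 array, its difference was -1.11.

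Among 15 other genes of receptor feedback, 5 were higher and 1 lower 2 hr after E2, and 4 higher and 1 lower after E3. *Errfi1*, an inhibitor of the epidermal growth factor receptor, rose by 3.81 and 3.26, and *Socs1*, a suppressor of cytokine signaling, by 3.78 and 3.48. *Flrt3*, a membrane protein that binds fibroblast growth factor receptors and is known to promote their signaling, decreased by 3.48 and by 3.23. At 24 hr of E2, *Rasal1*, which switches off Ras, was at 1.13, *Cblb*, a ubiquitin ligase, at -1.17, and *Flrt3* at -1.05. The *Rasal1* call was lost in 10 of 28 alternatives, among them normexp (0.98), no scaling between arrays (1.11), and the fit of those groups alone (1.13). The same held without the 2 or 4 pancreas-high arrays. Leaving out any 1 array of E2 at 24 hr, or saline replicate 1 or 3, lost the call too (0.99 to 1.16). The *Cblb* call was lost with normexp (-0.89) and quantile normalization (-0.97). The *Flrt3* call at 24 hr was lost without saline replicate 3 (-0.99) and without the 4 arrays. None was called 24 hr after E3, with 2 higher and 5 lower at an unadjusted p under 0.05.

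The remaining phosphatases and Sprouty relatives did not share 1 direction. Of 13 genes, 3 were higher and 1 lower 2 hr after E2, and 1 higher and 2 lower after E3. *Dusp8*, a phosphatase of JNK and p38, rose by 3.18 after E2 and 2.52 after E3. *Dusp3* rose by 1.19 after E2, and *Dusp22* decreased by 1.05. *Spry3* was at -1.60 at 2 hr of E3 and at 1.98 and 1.24 at 24 hr of E2 and E3, and *Dusp26* was at -1.43 at 2 hr of E3 and at -2.84 at 24 hr of E2. *Dusp19* (1.24) and *Dusp16* (-1.38) were also called 24 hr after E2, where 3 were higher and 2 lower. *Spry3* was the 1 gene called 24 hr after E3. With normexp it was not called in any of these comparisons (-0.12 at 2 hr of E3, and 0.52 and 1.46 at 24 hr of E2 and E3), nor at 24 hr of E3 in the fit of those groups alone. Without the 4 pancreas-high arrays, *Spry3* (-1.20) and *Dusp26* (-1.15) were not called at 2 hr of E3. With slide as a block, where the saline side is 1 array, their differences were -1.47 and -1.48. The *Dusp22* call was lost without scaling between arrays (-0.96), with quantile normalization (-0.96), and without E2 2-hr replicate 2 (-0.98).

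In the kinase cascade itself, 4 of 20 genes were higher and 1 lower 2 hr after E2, and 3 higher and 1 lower after E3. The lower counts were under the shares of all probes. *Ksr1*, the scaffold that holds Raf, MEK, and ERK together, rose by 4.22 and 2.67. *Map2k1*, which encodes MEK1, rose by 1.85 and 1.77, whereas *Gab1*, a docking protein of receptors, decreased by 1.32 and by 1.02. At 24 hr of E2, *Rps6ka3* (1.5), an ERK-activated kinase, and *Map2k2* (1.03), which encodes MEK2, were called higher, and none was called after E3, with 4 higher and 3 lower at an unadjusted p under 0.05. The *Map2k2* call was lost in 6 of 28 alternatives, with other scalings (0.87 and 0.98), without E2 24-hr replicate 2 (0.96) or saline replicate 3 (0.97), and without the 2 or 4 pancreas-high arrays. The *Gab1* call after E3 was lost with normexp (-0.95) or quantile normalization (-0.99), and without E3 2-hr replicate 3 (-0.89), saline replicate 3 (-0.96), or the 4 arrays (-0.83). With slide as a block, where the saline side is 1 array, its difference was -1.15. Among 14 kinases of the p38 and JNK branches, *Map2k6*, an activator of p38, was lower at 2 hr of E2 (-1.58), and none was called in the other 3 comparisons against saline. At an unadjusted p under 0.05, 5 were higher and 5 lower at 2 hr of E3 (20.9% and 34.2% of all probes), 5 and 4 at 24 hr of E2, and 3 and 2 at 24 hr of E3.

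**Figure D5:**
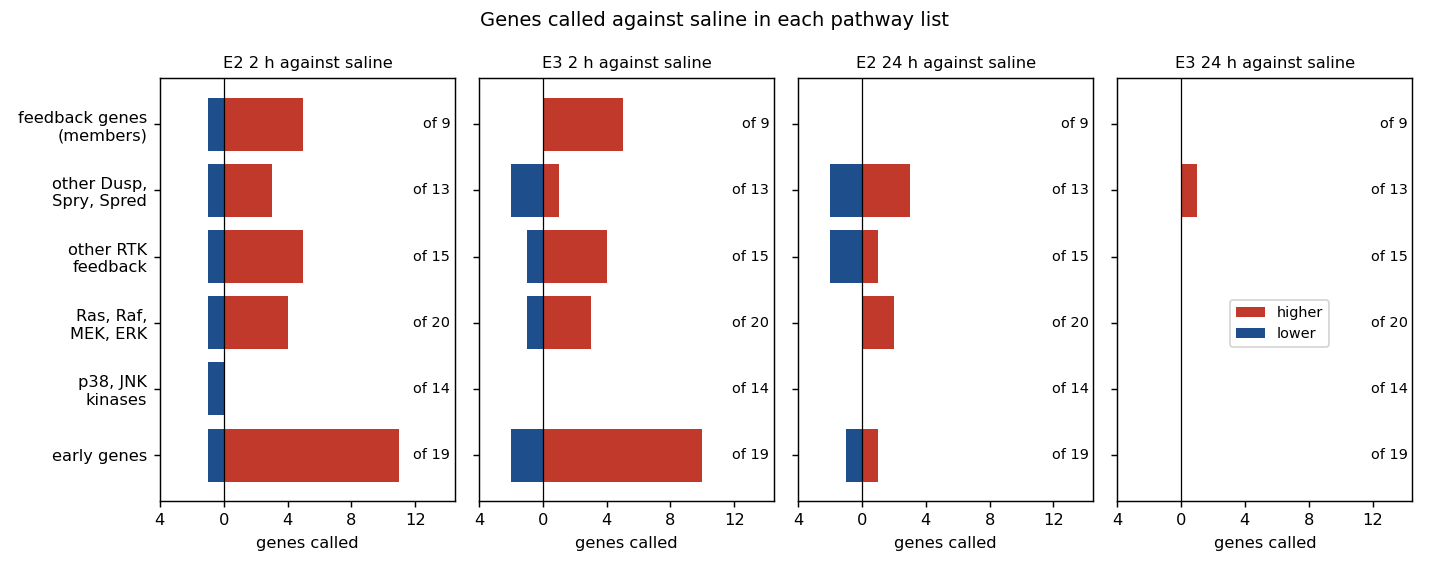
Number of genes called higher (right of 0) and lower (left of 0) than saline in the feedback genes and 5 related lists, for each treated group. Numbers at the right give the genes tested. At 2 hr of E2, 5 of 9 feedback genes and 11 of 19 genes of the early gene list were higher, and at 24 hr of E3 1 gene of all lists was called.

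Genes with the most similar pattern were sought over the 4 differences from saline of 17167 genes, by the root mean square difference, as a description. For *Dusp6* these were *Nos3* (0.028 log2 units) and *Phf23* (0.054), and for *Spry2* they were *Rsad1* (0.025) and *Pvr* (0.090). *Dusp1* was nearest to *Twist2* (0.10) and *Kcns3* (0.14). *Dusp2* was nearest to *Zfpm1* (0.10) and 2310076L09Rik (0.14). For *Spry1* the nearest were 2810403D21Rik (0.064) and *Abtb1* (0.077). *Spry4* had no neighbor as close, with *Grin2c* at 0.27 and *Bmp8a* at 0.30.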

How the data were processed

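Uterine RNA was measured on 15 Cy3 arrays of 41174 probes. The authors extracted spot intensities with Agilent Feature Extraction (9.5 in the submitters' processing notes, 9.5.3.1 in the file headers). The deposited intensities are background subtracted and detrended within each array, and not normalized between arrays. The series table deposited with them repeats these intensity values. Outlier spots (1893) were set aside, spots of a probe averaged, and log2 intensity taken relative to that of each array's 75th percentile (2989 to 4412). On each array, 77.7% to 81.6% of probes were well above background. Tests covered the 34765 probes (84.4%) that passed that measure on 2 or more arrays of some group.

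The 5 group means were fitted with limma 3.58.1 in R 4.3.3 (10 residual and 2.06 prior degrees of freedom), and 9 comparisons were made, in place of the Rosetta Resolver error model of the methods, which could not be run. The thresholds (p under 0.001, 2-fold) are those of the study's heat map. Figures were drawn with matplotlib 3.10.9. The fit and call rule were tested on simulated data with known changes. Probe positions are from the array annotation (mm7), and promoters from RefSeq (GRCm38.p6). The array annotation's gene models were not used here, so exon and UTR positions are not given. Replicate numbers, which the labels give with no word of a shared animal, day, or pool, correlated above 0.1 in every pair of E3 2-hr and 24-hr arrays (0.113 to 0.544) and in no other set of 3 pairs, so those arrays alone were treated as paired in an alternative.

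The members, lists, and comparisons were chosen with earlier results of these data known. The genes named are all members with every probe, up to 2 genes with the greatest rise and up to 2 with the greatest fall among the called genes of each list and comparison with saline, and the 2 genes nearest in pattern to each member called against saline. Alternatives were other scalings, normexp (offset 50), other filters (none, or a mean signal above 100), call rules, probes, slide and replicate blocks, fits of 2 groups alone, and leaving out each array. Leaving out arrays high in exocrine pancreas transcripts and the paired fit of the E3 arrays were chosen after seeing the data. The number of arrays limits the precision.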

Additional observations from a re-analysis of the deposited data

Results flagged for a closer look

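The difference between E3 and E2 changed between 2 and 24 hr on 2 probes of the feedback genes, by a test of that change itself. Counted by the brightest probe this is 1 of 9 genes, beside 11.1% of all probes called in that direction, so the share is that of the background. For *Dusp10* it changed by 1.06 ± 0.19 (SE; adjusted p = 0.000731, limma), from -0.25 at 2 hr to 0.81 at 24 hr. This call was lost with normexp (0.98), without scaling between arrays (1.10, adjusted p = 0.0156), without E2 24-hr, E2 2-hr, or E3 2-hr replicate 2 (0.97 to 0.99), and without the 2 or 4 pancreas-high arrays (0.91 and 1.00). On the dimmer *Spry2* probe (A_51_P445153) the change was 1.06 ± 0.12 (adjusted p = 3.12e-05), from -1.45 to -0.38. On the brighter *Spry2* probe it was 0.48 (-0.03 to 0.98) and was not called.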

How the results depend on the processing

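Of 23 member differences that were called, 0 changed direction under any alternative, and 11 stayed called in all alternatives run for them. Of 38 named differences of the related lists, 26 stayed called. The count of members called moved under these alternatives, the fit with slide as a block left out because no call is drawn from it. For E2 at 2 hr it went from 6 to 4 with quantile normalization (*Dusp2* and *Dusp6* lost), and to 5 in the fit of 2 groups alone, with the replicate block, or without the 2 or 4 pancreas-high arrays. For E3 at 2 hr it went from 5 to 6 with quantile normalization (*Spry1* gained), to 7 with no minimum change (*Spry1* and *Spred1*), and to 4 with normexp, the dimmer *Spry2* probe, or without the 4 arrays. For 24 against 2 hr, no minimum change gave 7 for E2 (*Dusp4* and *Dusp10* gained) and 6 for E3 (*Spry1*), and E3 went from 5 to 4 with normexp, the dimmer *Spry2* probe, or without the 4 arrays. For E2 at 24 hr against saline the count went from 0 to 1 when scaled on probes well above background on all arrays or with quantile normalization, and to 4 with no minimum change. With no minimum change it went from 0 to 2 for E3 at 24 hr against saline and from 0 to 2 for E3 against E2 at 24 hr. For E3 against E2 at 2 hr it went from 1 to 0 with normexp or the dimmer *Spry4* probe (not well above background on 1 E3 array), and to 2 with the dimmer *Spry2* probe. For the change of the compound difference with time it went from 1 to 2 with an adjusted p under 0.05 or the dimmer *Spry2* probe, to 0 without scaling or with normexp, and to 0 without the 2 or 4 pancreas-high arrays. Without those 2 or 4 arrays the members lower at 24 hr than at 2 hr of E2 went from 5 to 3 (*Dusp2* and *Dusp6* lost). Leaving out 1 array gave 4 to 6 members for E2 at 2 hr against saline, 5 to 5 for E3 at 2 hr, 0 to 1 for E2 at 24 hr, 0 to 0 for E3 at 24 hr, 4 to 5 and 5 to 6 for 24 hr against 2 hr of E2 and E3, 0 to 1 and 0 to 0 for E3 against E2 at 2 and 24 hr, and 0 to 1 for the change with time. The causes were not tested.

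Directions reversed on other probes of uncalled differences. *Dusp4* at 24 against 2 hr of E2 was 0.26. *Spred1* was 0.41 and 0.12 at 2 hr of E2, 0.10 at 2 hr of E3, 0.18 and 0.12 at 24 hr of E2 and E3, 0.058 at 24 against 2 hr of E2, and -0.044 for the change with time. Of 34 differences with an adjusted p of 0.05 or more, 22 changed sign in some alternative.

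Normexp moved the median of all probes by more than 0.1 for E3 at 24 hr, to 0.30 against saline, 0.47 against 2 hr, 0.42 against E2, and 0.47 for the change with time. In the paired fit of the E3 arrays alone, 24 against 2 hr of E3 went from 5 to 3 members (*Dusp2* and *Spry2* lost). With replicate number as a block over all arrays, *Dusp2* at 2 hr of E2 was not called (1.5, adjusted p = 0.0035), and no other member call was lost; 9 of 30 same-numbered pairs correlated above 0.1, and 5 of 15 arrays matched their own number best.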
